A study of Mus musculus with 9 samples.

Results

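The genes described here supply peptides to major histocompatibility complex (MHC) class I molecules and help to load them. They are 10 mouse genes: the immunoproteasome subunits Psmb8, Psmb9 and Psmb10, the proteasome activator subunits Psme1 and Psme2, the peptide transporter subunits Tap1 and Tap2, tapasin (Tapbp), the tapasin-related protein Tapbpl, and the endoplasmic reticulum aminopeptidase Erap1. They were chosen by name, and the platform annotation assigned 17 of 45101 probe sets to them, of which 10 were above a log2 value of 5 in at least 3 arrays. Of the 9697 genes that could be tested, 8 were members. The brightest of the 4 Tap1 probe sets stayed below 5 in all 9 arrays, and the single Psme2 probe set also names the gene copy Psme2b, so neither entered the test.

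Quadriceps femoris muscle of female C57Bl/6 mice labelled as HT transgenic was profiled in 3 groups of 3 arrays. In late mice doxycycline, which keeps the transgene off, was withdrawn at 35 days of age and muscle was taken at 50 days. In early mice it was withdrawn at 21 days and muscle was taken at 35 days, after 2 weeks of expression. Control mice stayed on doxycycline and were killed at 35 days; the protocol calls them single transgenic littermates, whereas the strain label is the same in all groups, and no separate driver or cell type of expression was named in the sources used here. Late mice were also older than controls, and the effects of age and of induction on them cannot be told apart. All levels are GCRMA signals on the log2 scale, and the median of an array lay between 3.41 and 3.45.

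The induced transgene product is a class I protein, and its own class I gene, H2-K1, was read first as a check of the labels. A rise of H2-K1 was thus set by the design, and signal of the transgene and of the endogenous gene was not told apart. H2-K1 stood at 14.20, 13.11 and 14.31 in late arrays, at 14.67, 14.64 and 14.69 in early arrays and at 10.88, 10.47 and 10.21 in control arrays. No late or early array overlapped a control array. The difference was 3.35 ± 0.31 (SE) for late against control and 4.14 ± 0.31 for early against control (limma adjusted p = 0.00446 and 0.00115). On this probe set H2-K1 was 10.2-fold (95% interval 6.29 to 16.6) higher in late and 17.7-fold (10.9 to 28.7) higher in early muscle than in control muscle. The platform gives H2-K1 3 other probe sets, all marked as sharing probes with other transcripts like the brightest, and they did not give 1 size. In the fit of all 45037 probe sets they differed by 4.06, 4.0 and 0.47 for late against control (limma adjusted p = 0.036, 0.163 and 0.942) and by 5.10, 7.29 and 0.61 for early against control (adjusted p = 0.0139, 0.0417 and 0.708). Skeletal muscle markers such as the actin gene Acta1 and the creatine kinase gene Ckm were bright in every array, with a summed level of 18.57 to 18.67 in late, 18.48 to 18.51 in early and 18.52 to 18.61 in control arrays on the log2 scale.

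Class I molecules display peptides that come mostly from proteins cut in the cytosol by the proteasome. Interferon-gamma is known to induce Psmb8, Psmb9 and Psmb10, which take the places of the constitutive catalytic subunits Psmb5, Psmb6 and Psmb7 in newly assembled core particles, and to induce the activator cap made of Psme1 and Psme2. Peptides then pass through the Tap1 and Tap2 transporter into the endoplasmic reticulum, where Erap1 trims them, tapasin bridges the class I molecule to the transporter, and Tapbpl edits the bound peptide; in resting skeletal muscle fibres class I molecules are normally scarce.

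In the RefSeq table of mouse assembly GRCm38.p6, Psmb9, Tap1, Psmb8 and Tap2 are consecutive genes on chromosome 17. Tapbp and H2-K1 lie on the same chromosome, Psme1 and Psme2 on chromosome 14, Erap1 on 13, Psmb10 on 8 and Tapbpl on 6. Start-site windows of 250 bases upstream to 50 bases downstream were held for 8 of the 10 members, all but Tap2 and Tapbpl. The stretches below show the letters around the starts of the genes on which the results turn, with 1 named motif per stretch in capitals; the first is the whole interval of 225 bases between the starts of Tap1 and Psmb9, which are read in opposite directions from it. The plus strand is printed in each case.
Tap1 and Psmb9 shared start region, chr17:34187331-34187555, plus strand: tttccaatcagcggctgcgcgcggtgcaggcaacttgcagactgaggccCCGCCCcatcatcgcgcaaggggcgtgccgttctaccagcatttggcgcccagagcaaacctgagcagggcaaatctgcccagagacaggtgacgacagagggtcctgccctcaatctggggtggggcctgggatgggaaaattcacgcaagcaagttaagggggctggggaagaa
Psmb8, chr17:34198045-34198194, plus strand: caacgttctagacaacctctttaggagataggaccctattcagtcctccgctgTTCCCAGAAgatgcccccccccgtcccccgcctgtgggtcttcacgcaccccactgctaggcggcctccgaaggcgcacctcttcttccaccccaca
Erap1, chr13:74639753-74639882, plus strand: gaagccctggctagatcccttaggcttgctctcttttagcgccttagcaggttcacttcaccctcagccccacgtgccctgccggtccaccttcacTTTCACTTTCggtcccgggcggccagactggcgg
Psme1, chr14:55578394-55578523, plus strand: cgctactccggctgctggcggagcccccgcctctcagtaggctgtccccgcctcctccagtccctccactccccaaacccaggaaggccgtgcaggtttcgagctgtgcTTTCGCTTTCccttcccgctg
B2m, chr2:122147507-122147636, plus strand: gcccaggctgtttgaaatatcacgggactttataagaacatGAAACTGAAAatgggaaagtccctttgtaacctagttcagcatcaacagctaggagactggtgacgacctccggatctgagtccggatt
The capitals mark a GC box in the interval shared by Tap1 and Psmb9, a GAS-type match in Psmb8, and an interferon-stimulated response element (ISRE) core in Erap1, Psme1 and B2m. B2m, the light chain of class I molecules and not a member, is printed because its level followed the members most closely among genes of the same pathway. The letters searched, on both strands, were GAAA, any 2 bases and GAAA again for the ISRE core, TTCNNNGAA for the GAS-type motif and GGGCGG for the GC box, and no capitalised match overlapped a match to another of these motifs. The ISRE core was found in 2 of 8 members, Erap1 and Psme1, and in 3.99% of the windows of 27025 genes. The GAS-type motif was found in 1 of 8 members, Psmb8, against 9.55% of genes, and the GC box in 6 of 8 members (Erap1, Psmb9, Psme1, Psme2, Tap1 and Tapbp), against 38.2%. The GC box counted for Psmb9 and the one counted for Tap1 are the same letters, in the interval that both genes share. The GC box of Erap1 begins 12 bases after the start and stands in lower case in its stretch. These matches describe the letters only.

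None of the 3 immunoproteasome subunits passed the test in the muscle in which H2-K1 rose. Psmb8, the chymotrypsin-like subunit, was at 6.53, 7.61 and 7.07 in late arrays, 7.31, 7.16 and 6.89 in early arrays and 6.70, 6.85 and 7.03 in control arrays. The groups overlapped, and both the lowest and the highest value belonged to late arrays. The difference was 0.21 ± 0.26 for late against control (limma adjusted p = 0.712) and 0.26 ± 0.26 for early against control (adjusted p = 0.606).

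Psmb9, which replaces the caspase-like Psmb6, was at 4.66, 6.31 and 6.19 in late arrays, 5.95, 6.19 and 5.64 in early arrays and 5.88, 5.91 and 5.59 in control arrays. One late array was lower than all others, and the remaining arrays of the 3 groups were mixed. The late group accordingly had the widest spread, 5.72 ± 0.92, against 5.92 ± 0.27 in early and 5.79 ± 0.18 in control muscle (mean ± SD, n = 3 each). Its difference was -0.07 ± 0.39 for late against control and 0.13 ± 0.39 for early against control, with limma adjusted p of 0.947 and 0.878. Without late array 1 the late against control value turned to 0.46 (adjusted p = 0.37).

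Psmb10, which replaces the trypsin-like Psmb7, was at 7.33, 7.73 and 7.76 in late arrays, 9.06, 8.42 and 7.89 in early arrays and 8.23, 7.89 and 7.86 in control arrays. All late arrays lay below all early and all control arrays, while early and control arrays overlapped. The difference was -0.85 ± 0.28 for late against early, a fold of 0.554 (95% interval 0.357 to 0.86), and it missed the threshold over all genes (limma adjusted p = 0.0762). Leaving out early array 3 gave -1.13 with adjusted p = 0.0101, and Psmb10 passed in this 1 of the 9 fits that left out 1 array. That fit also called many more of all genes than the main fit, as counted among the alternative settings. Against controls the difference was -0.39 ± 0.28 for late (adjusted p = 0.505) and 0.46 ± 0.28 for early (adjusted p = 0.39).

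**Figure D1:**
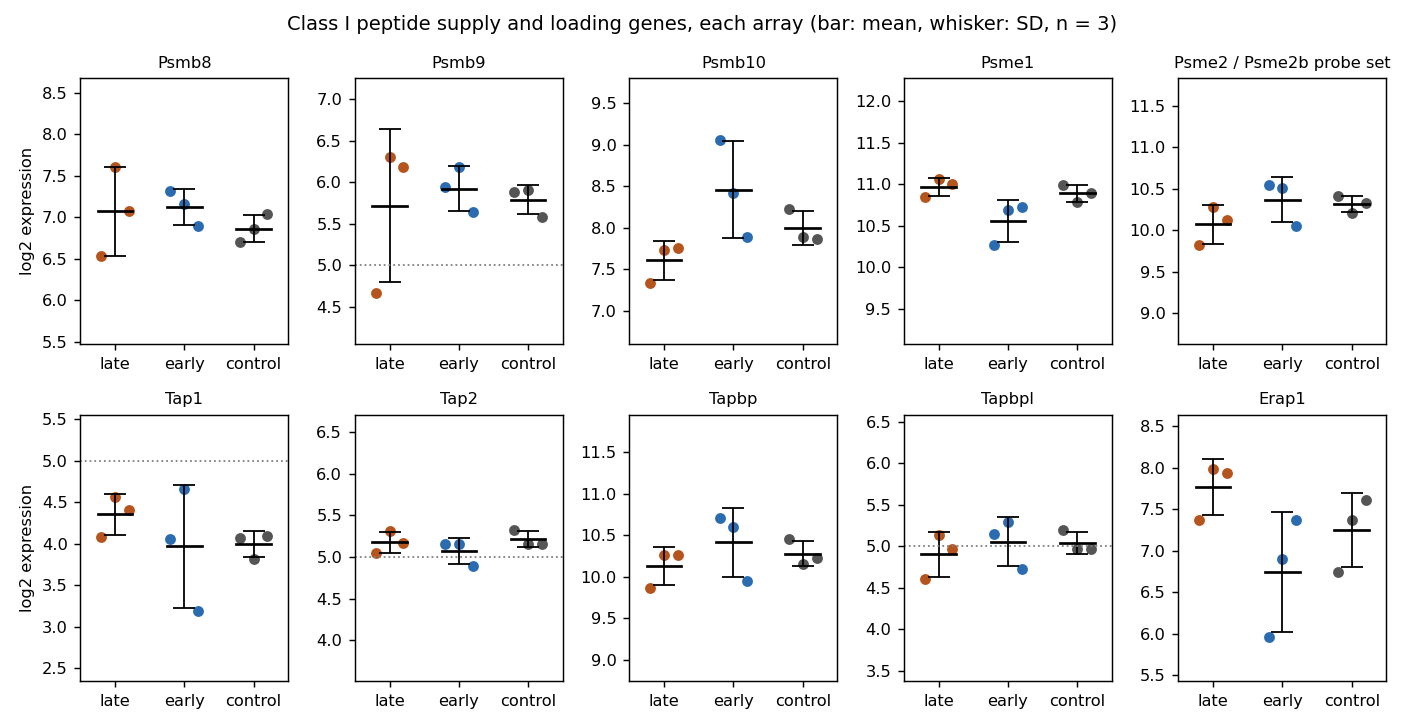
Log2 GCRMA signal of each member in every array (points), by group from left to right late, early and control, with the group mean and SD of 3 arrays; the dotted line marks the floor of 5. Groups overlap for most members, all late arrays lie below the other arrays for Psmb10, and all early arrays lie below the other arrays for Psme1.

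Psme1, a subunit of the activator ring that opens the core particle, was at 10.85, 11.06 and 11.00 in late arrays, 10.27, 10.68 and 10.73 in early arrays and 10.99, 10.79 and 10.90 in control arrays. All early arrays lay below all late and all control arrays. The difference was 0.41 ± 0.16 for late against early (limma adjusted p = 0.109) and -0.33 ± 0.16 for early against control (adjusted p = 0.294), so neither passed. The late against control difference was 0.08 ± 0.16, with a 95% interval from -0.28 to 0.43.

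The probe set shared by Psme2 and Psme2b was at 9.82, 10.28 and 10.13 in late arrays, 10.54, 10.51 and 10.06 in early arrays and 10.41, 10.21 and 10.33 in control arrays. Its groups overlapped in every comparison, and the signal of the gene and of the copy cannot be told apart. When this probe set was added to the fit, the difference was -0.24 ± 0.18 for late against control, 0.05 ± 0.18 for early against control and -0.29 ± 0.18 for late against early (limma adjusted p = 0.518, 0.9 and 0.274 over 9698 genes).

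The transporter genes were dim. The brightest Tap1 probe set read 4.09, 4.57 and 4.41 in late arrays, 4.06, 4.67 and 3.19 in early arrays and 4.07, 3.81 and 4.10 in control arrays, and the other 3 stood lower in every array. All groups overlapped, so a change of Tap1 was not measurable here at levels near background. In a fit of all 45037 probe sets without the floor, this Tap1 probe set differed by 0.36 for late against control and by -0.02 for early against control (limma adjusted p = 0.997 and 0.972). Tap2 was at 5.05, 5.31 and 5.17 in late arrays, 5.16, 5.16 and 4.89 in early arrays and 5.32, 5.15 and 5.16 in control arrays. These values sit at the floor, and the difference was -0.04 ± 0.14 for late against control and -0.14 ± 0.14 for early against control (limma adjusted p = 0.92 and 0.604).

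Tapasin was among the bright members. Tapbp stood at 9.86, 10.26 and 10.26 in late arrays, 10.71, 10.60 and 9.94 in early arrays and 10.45, 10.15 and 10.23 in control arrays. Its groups overlapped, and the early group held both a pair of high arrays and a low one. The difference was -0.15 ± 0.22 for late against control and 0.14 ± 0.22 for early against control (limma adjusted p = 0.761 and 0.763). Tapbpl, which edits peptides apart from the transporter, was near the floor, with means of 4.91 ± 0.27 in late, 5.06 ± 0.30 in early and 5.04 ± 0.13 in control muscle (SD, n = 3 each). Its differences against control were -0.14 ± 0.20 in late and 0.01 ± 0.20 in early muscle. A second Tapbp probe set and a second Tapbpl probe set were below 5 in every array and gave no separate measure of these genes.

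Erap1, the trimming enzyme, was at 7.37, 7.99 and 7.93 in late arrays, 5.96, 6.90 and 7.37 in early arrays and 6.75, 7.37 and 7.61 in control arrays. The late arrays were at or above the highest early array, and the control arrays overlapped both groups. The deposited value was identical in late array 1, early array 3 and control array 2, so these groups meet at 1 shared value. Erap1 differed by 1.02 ± 0.37 for late against early, a fold of 2.03 (95% interval 1.13 to 3.63), with a limma adjusted p of 0.096 that missed the threshold. With the replicate number as a block, for which the labels name nothing shared, the same difference had an adjusted p of 0.0298. Without early array 3 the difference was 1.33 with an adjusted p of 0.0252, in a fit that called many more of all genes than the main fit. A second Erap1 probe set above the floor read 6.15, 6.95 and 6.65 in late arrays, 5.72, 6.27 and 5.82 in early arrays and 6.46, 6.34 and 6.56 in control arrays. On that probe set the difference was 0.65 for late against early, in the same direction but smaller, and 0.13 for late against control, against 0.52 on the brighter one (adjusted p = 0.211 and 0.997 over 45037 probe sets on the dimmer one). For early against control Erap1 differed by -0.50 ± 0.37 on the brighter probe set (limma adjusted p = 0.485). The dimmer one gave -0.52 (limma adjusted p = 0.566 over 45037 probe sets), and there every early array lay below every control array.

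No member was called changed in any of the 3 comparisons in the main fit, which has no block. With the replicate number as a block 1 member, Erap1, was called in late against early, as given above. Array quality weights, leaving out early 3, and leaving out early 3 and late 1 together also called members, as listed among the alternative settings. The weights and the fit without early 3 called many more of all genes as well. The counts that follow are from the main fit. For late against control 0 of 8 members passed an adjusted p of 0.05, where 0.206% of all genes were called, and 0 of 8 had an unadjusted p under 0.05, where 17.3% of all genes did. For early against control 0 of 8 passed, where 1.19% of all genes were called, and 0 of 8 had an unadjusted p under 0.05, where 18.5% did. For late against early 0 of 8 passed, where 11.5% of all genes were called; 3 of 8 had an unadjusted p under 0.05 (Erap1 and Psme1 higher, Psmb10 lower), where 34.2% did. None of these counts sets the members apart from the other genes tested.

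Groups failed to overlap for few members. For late against control, 1 of 8 members (Psmb10) was lower without overlap, where 14.9% of all genes were, and 0 of 8 were higher, where 16% were. For early against control, 1 of 8 (Psme1) was lower without overlap, where 13.9% of all genes were, and 0 of 8 were higher, where 9.63% were. For late against early, 1 of 8 (Psme1) was higher without overlap, where 18.3% of all genes were, and 1 of 8 (Psmb10) was lower, where 13.7% were. The median difference over the 8 tested members was -0.05 for late against control, 0.07 for early against control and -0.10 for late against early, beside 0.01, -0.03 and 0.03 over all genes. The 2 comparisons against control share the same 3 control arrays.

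The 95% intervals bound the size of the differences. Against control, all 8 intervals included no change in both late and early muscle. The widest upper bound for late against control was a 2.57-fold rise, of Erap1, and the lowest lower bound a fold of 0.492, of Psmb10. For early against control the bounds reached 2.14-fold, for Psmb10, and 0.394, for Erap1. The intervals of Tap2 and Tapbpl are narrow at levels where GCRMA compresses values, so they bound those genes less well than their width shows. A missed threshold with 3 arrays a group does not show that a member was unchanged.

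**Figure D2:**
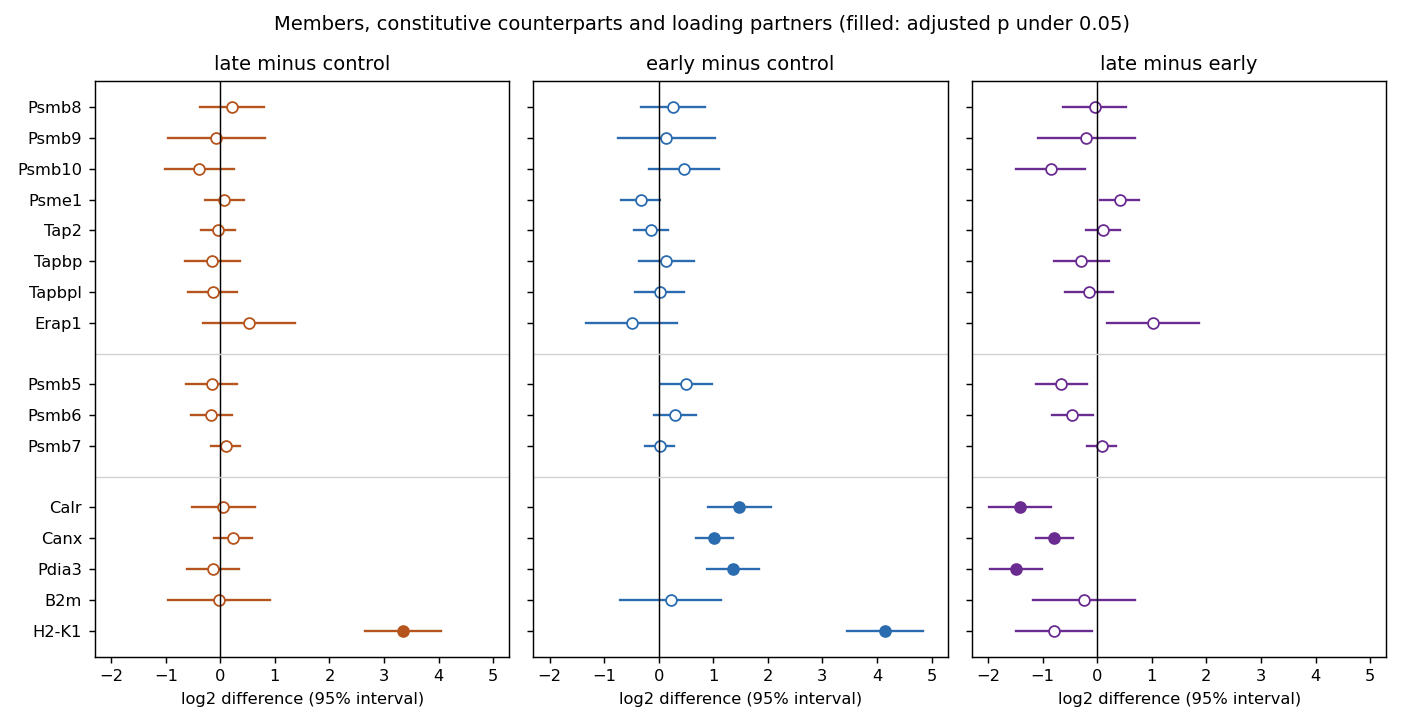
Log2 difference (x axis, with 95% interval) of each member and of named class I partners (y axis) for late minus control, early minus control and late minus early; filled points passed an adjusted p of 0.05. All 8 tested members are open in each panel, and H2-K1 is filled in both panels against control.

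Several genes that act in folding and loading of the class I heavy chain passed the test in early muscle. Of 9 tested folding and loading partners, 5 were called higher in early against control, where 1.19% of all genes were called in either direction. Among the 5 was H2-K1, the check of the labels, whose rise was set by the design. The others were the glycoprotein-folding sensor Uggt1, the chaperones calnexin (Canx) and calreticulin (Calr), and the oxidoreductase Pdia3, which pairs with tapasin. The median of the list, H2-K1 included, was 1.02, beside -0.03 over all genes. Calr was at 12.13, 12.25 and 13.13 in late arrays, 13.91, 14.13 and 13.72 in early arrays and 12.53, 12.45 and 12.37 in control arrays. Every early array stood above every late and control array for Calr.

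Calr was higher by 1.47 ± 0.25 in early than in control muscle (limma adjusted p = 0.0356), Canx by 1.02 ± 0.15 (adjusted p = 0.0192), Pdia3 by 1.35 ± 0.21 (adjusted p = 0.024) and Uggt1 by 1.43 ± 0.16 (adjusted p = 0.0075). In late muscle the same genes differed from control by 0.05, 0.23, -0.13 and 0.17. There H2-K1 was the single partner called, where 0.206% of all genes were. Directly between late and early muscle, 4 of the 9 were called lower and none higher, where 11.5% of all genes were called in either direction. The log2 differences were -1.42 for Calr (limma adjusted p = 0.0189), -0.79 for Canx (adjusted p = 0.0223), -1.49 for Pdia3 (adjusted p = 0.00961) and -1.26 for Uggt1 (adjusted p = 0.00612). Whether these genes differ from the members in response was not tested. Calr, Canx, Pdia3 and Uggt1 are general chaperones of the endoplasmic reticulum and serve many proteins besides class I molecules.

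These calls depend on single arrays to different degrees. In the 9 fits that each left out 1 array, Pdia3 and Uggt1 were called lower in late than in early muscle in all 9, and Calr and Canx in 6, being lost without early 1, early 2 or late 2. For early against control, Uggt1 was called in 7 of the 9 (not without control 2 or control 3), Pdia3 in 5 (not without control 2, control 3, early 1 or early 2), Canx in 4 (not without any 1 control array, early 1 or early 2) and Calr in 3 (also not without late 2). The log2 difference of Calr for early against control stayed between 1.37 and 1.57 in these fits. Other settings also ended calls. With the replicate block the early against control calls of Calr (limma adjusted p = 0.0831) and Pdia3 (adjusted p = 0.0717) were lost, and with no filter on low values they were lost as well (adjusted p = 0.0821 and 0.0548). Fits on the compared groups only lost Pdia3 for early against control (adjusted p = 0.0541) and Calr, Canx and Uggt1 for late against early (adjusted p = 0.0827, 0.0909 and 0.0605).

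B2m, the light chain that every class I molecule carries, was at 12.18, 13.68 and 13.44 in late arrays, 13.52, 13.86 and 12.65 in early arrays and 13.12, 13.07 and 13.18 in control arrays. The late and early groups each held 1 array below all controls, and their other arrays lay above all controls. B2m differed by -0.02 ± 0.41 for late against control and by 0.22 ± 0.41 for early against control (limma adjusted p = 0.986 and 0.801), and its sign against control turned when single arrays were left out. H2-D1, another classical heavy chain, differed by 0.71 for early against control (adjusted p = 0.313).

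The constitutive catalytic subunits were set beside the subunits that replace them. Psmb5, the counterpart of Psmb8, was at 12.42, 12.34 and 12.24 in late arrays, 13.43, 12.98 and 12.58 in early arrays and 12.58, 12.49 and 12.40 in control arrays. Late arrays lay below all early arrays, and the early arrays ran from close to the controls upwards. Psmb5 differed by -0.66 ± 0.20 for late against early and by 0.50 ± 0.20 for early against control (limma adjusted p = 0.0668 and 0.242). Psmb6, the counterpart of Psmb9, differed by -0.45 for late against early and by 0.29 for early against control (adjusted p = 0.0991 and 0.37), and Psmb7, the counterpart of Psmb10, by 0.08 and 0.02.

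Psmb10 varied over the arrays with Psmb5 (Pearson r = 0.91, Spearman rho = 0.88, 9 arrays, and r = 0.91 without the 2 arrays farthest from the median of Psmb10) and had r = -0.42 to Psmb7, the subunit it replaces. Without the same 2 arrays the value of Psmb10 to Psmb7 turned to 0.13, so its sign rests on them. The other pairs had r = 0.24 to Psmb5 for Psmb8 and r = -0.05 to Psmb6 for Psmb9. Without the 2 arrays farthest from the median of Psmb8 and of Psmb9, these pairs had r = 0.63 and 0.22. These coefficients describe 9 points that share array and group, and no test was made of them.

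**Figure D3:**
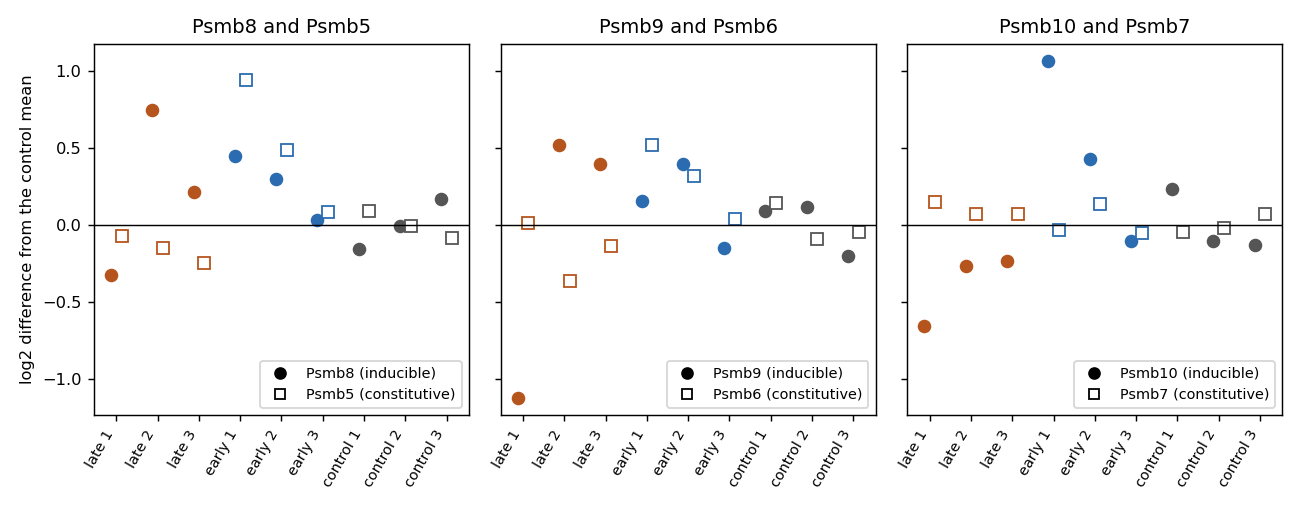
Log2 deviation from the control mean (y axis) of each immunoproteasome subunit and its constitutive counterpart in every array, with groups from left to right late, early and control. Psmb10 and Psmb5 are both highest in the same early array, and Psmb9 is lowest in late array 1.

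The wider proteasome lists gave few calls. Of 14 constitutive 20S core subunits none was called in any comparison by limma, while 13 had a positive difference in early against control (median 0.23) and 3 in late against early (median -0.26). Of 17 subunits of the 19S cap, 1 fell in late against early, the lid subunit Psmd11 (-0.78, adjusted p = 0.037), and none was called against control. Of 7 tested assembly factors and other activators, 1 fell in late against early, the assembly chaperone Psmg3 (-0.68, adjusted p = 0.0328). When single arrays were left out, Psmd11 and Psmg3 were each called in 1 of 9 fits, the fit without early 3. Fits on the compared groups only lost both (adjusted p = 0.113 and 0.108), and Psmd11 was also lost with no filter on low values (adjusted p = 0.0613), with the mean of its probe sets (adjusted p = 0.0678) and without probe sets marked as sharing probes (adjusted p = 0.0724).

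Few peptidases and regulators of the pathway were called. Of 11 tested peptidases that act on peptides of the cytosol and other compartments, 1 rose in late against early, nardilysin (Nrd1, 0.86, adjusted p = 0.0206), and none was called against control; Nrd1 was called in 6 of 9 fits that left out 1 array, and not without early 1, early 2 or late 2. Lap3, an aminopeptidase known as interferon-inducible, was higher by 0.47 ± 0.14 in early than in control muscle without passing (adjusted p = 0.158). Of 13 tested regulators of class I genes, the interferon-receptor kinase Jak2 rose (1.39, adjusted p = 0.0341) and the interferon-gamma receptor chain Ifngr2 fell (-1.32, adjusted p = 0.0368) in late against early, and none was called against control. Jak2 kept its call in 1 of the 9 fits, the one without early 3, and Ifngr2 in 2, those without early 3 or late 3. Fits on the compared groups only lost Nrd1, Jak2 and Ifngr2 (adjusted p = 0.0874, 0.112 and 0.114), and no filter on low values lost Jak2 and Ifngr2 (adjusted p = 0.074 and 0.0796). Irf1, a transcription factor of class I and immunoproteasome genes, differed from control by 0.19 in late and 0.21 in early muscle (adjusted p = 0.606 and 0.533).

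The arrays of 1 group differed among themselves in the members. Late array 1 was the lowest of its group for 8 of 8 tested members, where it was so for 40.9% of all genes, and the lowest of all 9 arrays for 5 of 8 (Psmb8, Psmb9, Psmb10, Tapbp and Tapbpl), where it was so for 19% of all genes. Early array 3 was the lowest of its group for 6 of 8, against 40.1% of all genes, the exceptions being Erap1 and Psme1, which were lowest in early array 1. Over all genes early array 1 was the lowest of the 9 arrays for 25.1% and the highest for 22.6%, each the largest share of any array. The median deviation of the members from the control mean was -0.37, 0.13 and 0.05 in late arrays, 0.13, 0.27 and -0.16 in early arrays and 0.10, -0.07 and -0.05 in control arrays. Results without late array 1 or early array 3 stand beside the members above and among the alternative settings.

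Interferon response genes were also lowest in late array 1. Their median deviation from the control mean was -1.34, 0.68 and 0.28 in late arrays, 0.15, 0.43 and -0.26 in early arrays and 0.03, -0.07 and 0.06 in control arrays, over 26 tested genes. Late array 1 was the lowest of all arrays for 24 of the 26. None of the 26 was called in any comparison by limma, and the list medians were -0.08 for late against control, 0.08 for early against control and -0.21 for late against early. Cxcl9, a chemokine induced by interferon-gamma, was at 2.56, 7.11 and 6.24 in late arrays, 5.77, 6.57 and 5.48 in early arrays and 5.70, 5.50 and 5.77 in control arrays. Late array 1 was thus far below the 8 other arrays for Cxcl9.

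**Figure D4:**
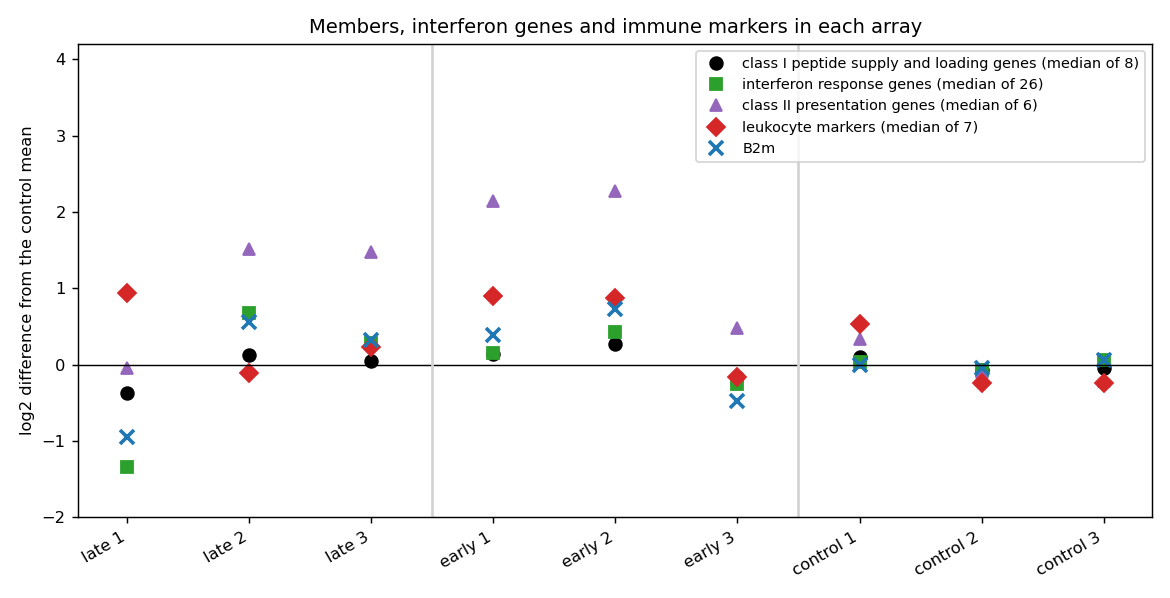
Median log2 deviation from the control mean (y axis) of the members, of interferon response genes, of class II presentation genes and of leukocyte markers, and the deviation of B2m, in every array with late arrays left, early arrays in the middle and control arrays right. The members, B2m and the interferon genes are all lowest in late array 1.

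The genes whose pattern was most like the members were named by their correlation with the mean standardised profile of the 8 tested members over 9 arrays. The 5 highest among 9689 other genes were the lipid droplet hydrolase Ldah (r = 0.95), the interferon-induced Ifit3 (0.94), B2m (0.94), the interferon-induced Ifit1 (0.93) and the mast cell carboxypeptidase Cpa3 (0.93). Without late array 1 they had r = 0.91, 0.87, 0.91, 0.90 and 0.86. The interferon list had a median r of 0.822, and 21 of its 26 genes (80.8%) were above 0.7, against 3.03% of all other genes. Without late array 1 the interferon median was 0.727 and 53.8% were above 0.7, against 4.99% of all other genes. Likeness was not limited to the interferon list. Class II presentation genes had a median r of 0.599, macrophage markers 0.475 and endothelial markers 0.408, beside 0.0189 over all other genes. Above 0.7 were 0%, 27.3% and 12.5% of these 3 lists. The leukocyte markers had a median r of 0.054. H2-K1 had r = -0.15, and the skeletal muscle markers a median r of -0.27. All these are descriptions of 9 arrays that share groups, and interferon genes were not chosen independently of earlier results.

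Each tested member was also set against the mean standardised profile of the other 7, so that no gene was compared with itself. Tapbpl (r = 0.85), Psmb9 (0.84), Tap2 (0.69), Psmb8 (0.64) and Tapbp (0.61) had the higher values over 9 arrays, and Psmb10 (0.22), Psme1 (-0.056) and Erap1 (-0.20) the lower ones. Of the 28 pairs of tested members 20 had a positive r over the 9 arrays, with a median of 0.38, from -0.86 for Erap1 with Psmb10 to 0.91 for Tapbp with Tapbpl. Erap1 and Psme1 had r = 0.81 with each other (rho = 0.73, and r = 0.95 without the 2 arrays farthest from the median of Erap1). Among the constitutive counterparts Erap1 had r = -0.92 to Psmb5, -0.94 to Psmb6 and 0.38 to Psmb7. Without the 2 arrays farthest from the median of Erap1 these were -0.90, -0.92 and -0.13.

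Markers of other cells were read in the same arrays, because muscle is a mixture and fewer cells of a type cannot be told apart from less RNA per cell. Of 7 leukocyte markers, all above the floor, none was called; their summed level ran from 10.85 to 11.68 in late, from 10.62 to 11.75 in early and from 10.58 to 11.18 in control arrays. The leukocyte median deviation from the control mean was 0.93, -0.11 and 0.23 in late arrays, 0.89, 0.87 and -0.16 in early arrays and 0.53, -0.24 and -0.24 in control arrays. Late array 1, lowest of its group for the members, was the highest for these markers, and early array 3 was the lowest of its group for both. Other immune lists ran differently in late array 1. The macrophage median deviation was -0.77, 0.06 and -0.02 in late, 0.68, 0.38 and -0.28 in early and 0.32, -0.19 and -0.17 in control arrays. That of class II presentation genes was -0.04, 1.51 and 1.47 in late, 2.14, 2.27 and 0.47 in early and 0.33, -0.09 and -0.21 in control arrays. Both lists were thus lowest of their group in late array 1 and early array 3, like most members. The leukocyte list medians were 0.67 for late against control and 0.49 for early against control, with 6 and 7 of 7 differences positive. Macrophage markers summed to 14.16 to 14.41 in late, 13.93 to 15.04 in early and 14.00 to 14.44 in control arrays, and 1 of 11 tested, C1qa, was called, lower in late than in early (-1.70, adjusted p = 0.0468, and 0.0574 with the replicate block). For late against early 1 of the 11 had a positive difference, Cd163 at 0.58 (limma adjusted p = 0.139). The defining T and NK cell markers, among them Cd3e, Cd8a and Nkg7, did not pass the floor in 12 of 12 cases.

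Of 5 annotated B cell markers 4 did not pass the floor, and the immunoglobulin gene Ighm was at 7.86, 11.59 and 12.28 in late arrays, 6.05, 7.12 and 10.92 in early arrays and 10.99, 10.51 and 11.13 in control arrays. Endothelial markers, of a cell type known to carry class I molecules, summed to 11.22 to 11.55 in late, 10.87 to 11.27 in early and 11.23 to 11.64 in control arrays, with 1 of 8 called, Vwf, higher in late than in early (1.04, adjusted p = 0.0327). Of the 8, 6 had a positive difference for late against early. Cldn5 ran the other way without passing, by -1.10 for late against early and -1.41 for late against control (limma adjusted p = 0.0518 and 0.0966). C1qa and Vwf were each called in 1 of the 9 fits that left out 1 array, the fit without early 3. Adipocyte markers summed to 14.00 to 15.00 in late, 14.13 to 14.37 in early and 14.55 to 15.15 in control arrays, with none of 4 tested called. Class II presentation genes, none of 6 called, had medians of 0.95 for late against control and 1.63 for early against control. The part of these cell types in the members' values was not tested.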

How the data were processed

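Quadriceps RNA from 9 female mice, 3 per group, was primed with oligo(dT), made into biotin-labelled cRNA and read on Affymetrix arrays, 1 per sample, per the labels' protocols. The deposited values are log2 GCRMA signals made by the authors, per the submitters' processing notes; GCRMA removes background, brings the arrays to a common distribution and gives 1 value per probe set, and its version is not given in the sources used here. It gives dim probe sets narrow, compressed values, and it hides any shift shared by all genes. On each array 17391 to 17735 probe sets were above 5, and 3 arrays per group limit the precision.

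Of 45101 probe sets, 34945 named 1 gene, 932 named several and 64 were controls. Probe sets above 5 in at least 3 arrays were kept (16048), and the brightest per gene gave 9697 genes. One model of 3 group means was fitted to all 9 arrays with limma 3.58.1 (lmFit, eBayes) in R 4.3.3, with 6 residual and 2.84 prior degrees of freedom, Benjamini-Hochberg adjustment over all genes tested, and calls at an adjusted p under 0.05; the adjusted p-values given are from it. The median residual SD was 0.258. With 3 against 3 arrays the smallest p of an exact test is 0.1, so none was made. The fit was tested on simulated data.

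Members and gene lists were chosen with earlier results of these data known. Named genes were all members, H2-K1, B2m, the constitutive counterparts, up to 4 genes of smallest p per list and comparison, and the 5 genes most like the members; examples named by marker role were added after values were seen. Nothing says whether samples of a group come from separate litters, so p-values reflect only how these samples vary. Deviations of same-numbered early and late arrays had correlations of 0.168, 0.201 and 0.16, and the labels do not name anything shared. Arrays of different numbers were not compared, so a pairing by number is neither shown nor excluded. The main results use no block. A fit with the number as a block is an alternative, and it gives each number the same effect in all 3 groups, late and control included. Early and control arrays of the same number gave correlations of 0.35, 0.11 and -0.0391. Late and control arrays gave 0.0847, -0.165 and -0.11. The labels name no batch. Alternatives covered the floor, the probe set chosen per gene, array weights, fits on the compared groups only, the replicate block and leaving out each array.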

Additional observations from a re-analysis of the deposited data

Results flagged for a closer look

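Late and early muscle differed from each other, each having been set against the same controls, for 11 named genes in the limma comparison of late against early. Many of the genes were named for a small p, in this comparison among others, and 11.5% of all genes were called in it. The number 11 is therefore no result and cannot be set against the members. The log2 differences were -1.42 for Calr, -0.79 for Canx, -1.49 for Pdia3 and -1.26 for Uggt1 among the folding and loading partners. They were -0.68 for Psmg3 and -0.78 for Psmd11 among proteasome genes, 0.86 for the peptidase Nrd1, 1.39 for Jak2 and -1.32 for Ifngr2, and among cell markers -1.70 for C1qa and 1.04 for Vwf. None of the 8 tested members was among them. For Psmb5 (-0.66) and the 19S subunit Psmd13 (-0.91, adjusted p = 0.0573) every late array lay on one side of the control mean and every early array on the other, and the direct comparison did not pass the threshold. Groups of 3 are too small for the test of a single array standing apart.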

How the results depend on the processing

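Calls of members were 0 under most of the 21 settings. By comparison they were 1 of 8 for early against control (Psmb10 0.54, adjusted p = 0.0222) and 3 of 8 for late against early (Erap1 1.08, Psmb10 -0.75 and Psme1 0.37) with array quality weights. Under these weights 3335 and 3534 of all 9697 genes were called. With the replicate block 1 of 8 was called for late against early (Erap1), where 1114 of 9697 genes were, and the block changed no other call of a member. Without early 3 and late 1 together, a setting chosen after seeing the data, members called were 1 for early against control (Psmb10 0.75) and 3 for late against early (Erap1 1.53, Psmb10 with adjusted p = 0.018, Psme1 0.55). The count of all genes called in that setting is not given here, so these member counts cannot be read against it. Leaving out single arrays gave 0 to 2 for late against early, the 2 being Erap1 and Psmb10 without early 3, where 2959 of 9697 genes were called, and 0 for the other comparisons. Of 492 values of single members under the alternatives 11 passed, with the smallest adjusted p 0.00998. The causes were not tested.

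H2-K1 for late against early reached -0.95 with array quality weights and -1.32 with the mean of the passing probe sets (adjusted p = 0.0415 and 0.049). It had no value without probe sets marked as sharing probes. Without single arrays it ranged from 3.99 to 4.33 for early against control, 3.14 to 3.73 for late against control and -1.01 to -0.41 for late against early.

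Signs of values that had not passed turned as follows. With weights, late against control was 0.33 for Psmb9, 0.054 for Tap2, 0.0081 for Tapbp, 0.031 for Tapbpl, 0.095 for Pdia3 and 0.33 for B2m, late against early was 0.14 for Psmb8 and -0.026 for Psmb7, and early against control was 0.060 for Nrd1. With the mean of probe sets, B2m for late against control was 0.0030. Without early 3 and late 1 together, late against control was 0.46 for Psmb9, 0.026 for Tap2, 0.012 for Tapbpl, 0.0011 for Pdia3 and 0.44 for B2m, and late against early was 0.10 for Psmb8 and 0.18 for Psmb9. Leaving out single arrays, late against control ranged from -0.060 to 0.48 for Psmb8, -0.37 to 0.46 for Psmb9, -0.10 to 0.026 for Tap2, -0.26 to 0.012 for Tapbpl, -0.26 to 0.24 for Calr, -0.27 to 0.064 for Pdia3 and -0.31 to 0.44 for B2m. Late against early ranged from -0.32 to 0.22 for Psmb8, -0.50 to 0.32 for Psmb9 and -0.58 to 0.22 for B2m. Early against control ranged from -0.0085 to 0.38 for Tapbp, -0.11 to 0.18 for Tapbpl, -0.040 to 0.56 for B2m, -0.043 to 0.052 for Psmb7 and -0.079 to 0.055 for Nrd1.

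The count of all genes called moved by over 1.5 times. Against 115 for early against control, 20 for late against control and 1119 for late against early, array weights gave 3335, 1037 and 3534, and leaving out early 3 gave 1756, 59 and 2959. Fits on the compared groups only gave 61, 12 and 38, the replicate block 62, 5 and 1114, and no filter on low values 56, 20 and 584. Signal close to the floor limits Tap1, Tap2 and Tapbpl.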
